A study of Mus musculus with 18 samples.

Results

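The mitochondrial protein import machinery was followed through 36 genes of the mouse heart, out of 25731 gene symbols in the count table. They are every symbol made of Timm or Tomm and a number, with Pam16, Dnajc15, Dnajc19, Grpel1, Grpel2, Pmpca, Pmpcb, Samm50, Chchd4 and Gfer, so they were chosen by name and not by level. Of the 36, 34 had enough counts to be tested, among 15088 genes tested in all. The hearts came from 18 adult wild-type C57BL/6 mice that the labels give as male, with 1 library per animal. In the SHAM group 6 mice had sham surgery, in the IR group 6 mice had myocardial ischemia-reperfusion, and in the IR+Decursin group 6 mice had ischemia-reperfusion and decursin, a coumarin of Angelica roots. All hearts were taken at day 7 after surgery. The dose and route of decursin, the length of ischemia and the part of the heart sampled are not given in the labels. A batch is named for each library, and each of the 3 batches is 1 group, so no comparison can separate a batch from a treatment: they cannot be told apart.

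Nearly all mitochondrial proteins are encoded in the nucleus, made in the cytosol and brought in through the outer membrane pore of the TOM complex. From there the small TIM chaperones carry hydrophobic proteins across the intermembrane space to the TIM22 carrier translocase or to the sorting and assembly machinery, and the disulfide relay folds cysteine-rich proteins. Proteins with an amino-terminal presequence pass through the TIM23 translocase, are pulled into the matrix by the import motor, and lose the presequence to the mitochondrial processing peptidase. Heart muscle is packed with mitochondria, so its cells express these genes together with those of the respiratory chain.

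Libraries held 27.5 to 35.0 M counts, and the 34 tested genes together with the pair not tested took 0.210 to 0.229% of counts in SHAM, 0.183 to 0.198% in IR and 0.183 to 0.219% in IR+Decursin. In every library 33 of the 36 genes had more than 10 counts. The labelled tissue was checked with 14 cardiomyocyte markers, whose summed level was 71506 to 83513 CPM (counts scaled to a library of 1 M) in SHAM, 37976 to 55250 in IR and 43320 to 74140 in IR+Decursin. None of the 14 was at 0 in any group. Libraries IR 3, IR 4 and IR+Decursin 2 held 14072 to 14232 counts of Xist, the transcript of the inactive X chromosome, against at most 8 in the other 15, which goes against their label as male. Library IR+Decursin 6 had the fibroblast marker sum nearest to SHAM (1488 CPM, with 1293 to 1507 in SHAM and 7107 to 10215 in IR) and held 2332306 counts of the gene model Gm26917. IR 1 held 308832 counts of it and the other libraries 16030 to 55028. Results that rest on these libraries are given with and without them.

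The first comparison, IR against SHAM, asked how ischemia-reperfusion changed the genes at day 7. Of the 34 tested, 26 fell, 0 rose and 8 did not pass the test (adjusted p under 0.05 over all 15088 genes, edgeR quasi-likelihood F-test). That is 76.5% of them, where 21.7% of all genes tested fell and 25.3% rose. The log2 fold changes had a median of -0.48 and ran from -0.78 to 0.22, while the median over all genes tested was 0.00. For 21 genes every IR library lay below every SHAM library, which held for 11.6% of all genes. In 9 genes (26.5%) the fall was at least 1.5-fold, against 7.51% of all genes. These 9 were Timm44, Grpel1, Dnajc19, Dnajc15, Tomm5, Timm22, Pmpcb, Timm21 and Timm8b. The 26 calls held when any 1 of the 18 libraries was left out (29 genes fell without IR 1), and 25 held without the 3 libraries with Xist, where Timm8a1 no longer passed (log2 fold change -0.29, adjusted p = 0.0628, with 0.00527 to 0.821 over all alternatives).

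**Figure D1:**
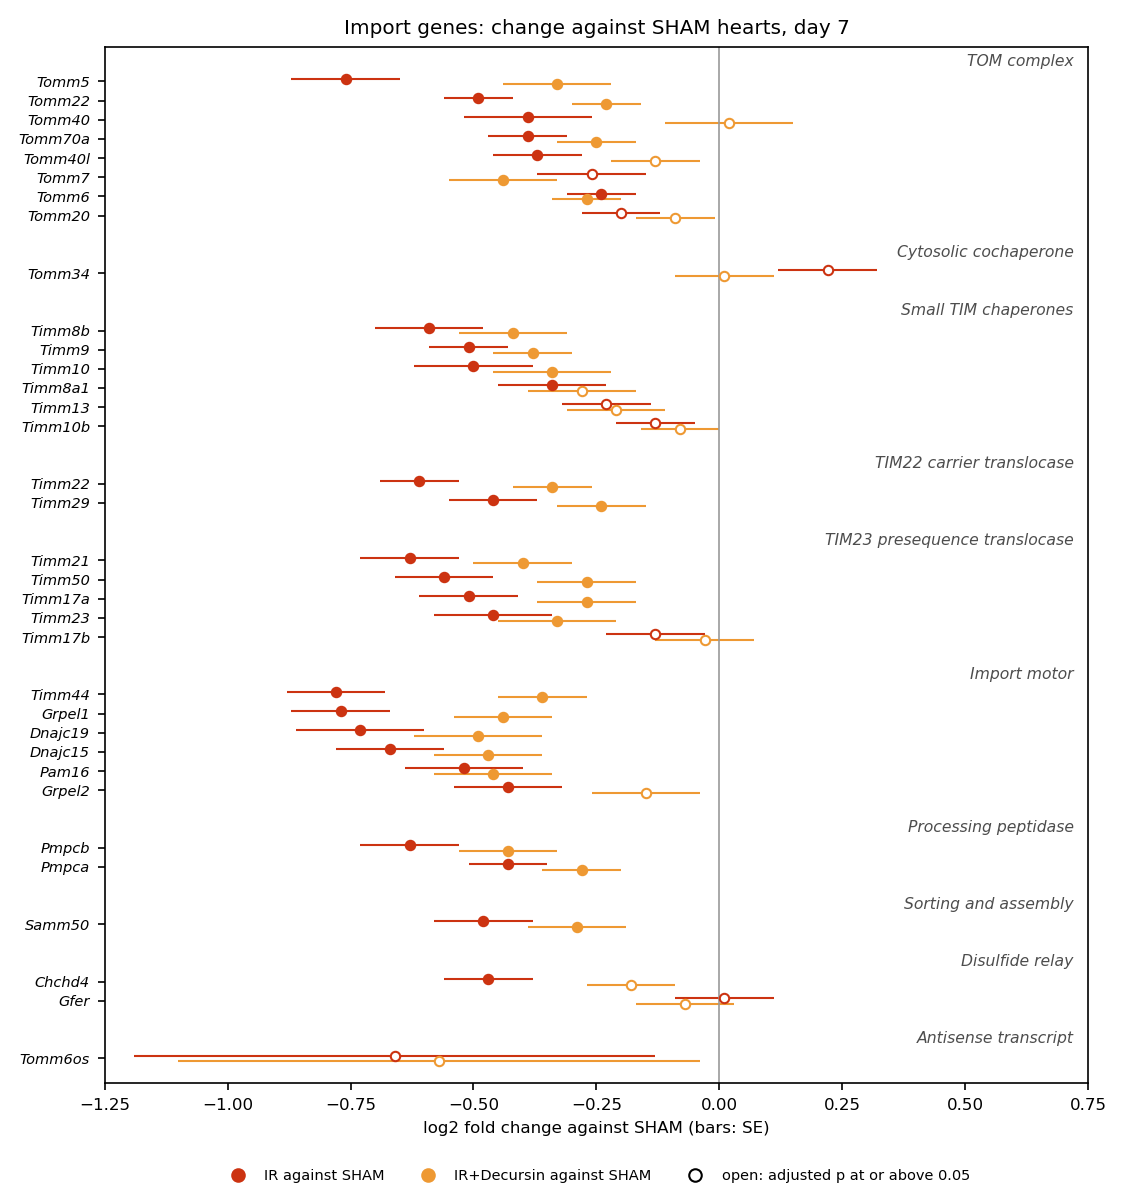
Log2 fold changes (x axis, bars are standard errors) of the 34 tested import genes by role, for IR against SHAM and IR+Decursin against SHAM, 6 libraries per group. Filled points passed the adjusted p of 0.05, which 26 genes did in IR and 22 in IR+Decursin, all of them to the left of 0.

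Other measures moved with these genes. All 14 cardiomyocyte markers fell in IR (median log2 fold change -0.59), all 8 fibroblast markers rose (0.92) and all 10 macrophage markers rose (1.95). The macrophage sum was 273 to 388 CPM in SHAM, 831 to 1492 in IR and 390 to 1092 in IR+Decursin, and the fibroblast sum reached 9804 in IR+Decursin, with none of these markers at 0 in a group. Of the other marker lists, 4 of 6 for neutrophils and 6 of 6 for T and NK cells rose, 1 of 8 for endothelium fell and 1 rose, and 4 of 7 for smooth muscle and pericytes fell. The 3 atrial cardiomyocyte markers were higher in IR with 0 called (median log2 fold change 0.38). Their sum was 48.1 to 149 CPM in SHAM, 7.22 to 582 in IR and 11.1 to 684 in IR+Decursin. In whole heart tissue, fewer cardiomyocytes and less of these RNAs per cardiomyocyte cannot be told apart. The counts also depended on how libraries were scaled. With library totals in place of TMM factors the median over all genes shifted to 0.31. On that scale 13 import genes fell while 2 rose (Gfer and Tomm34), where 7.00% of all genes fell and 46.5% rose. With every library scaled to an equal level of the 14 cardiomyocyte markers the median over all genes shifted to 0.71, and 0 import genes fell while 15 rose, where 76.3% of all genes rose. The median of the import genes was -0.17 on the first of these scales and 0.23 on the second. Rescaling a library moves all its genes alike. The gap between the import genes and all genes therefore could not differ much between scales, and its sameness is no separate check.

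Because most of the genes fell together, their promoters were read from the RefSeq promoter table (GRCm38.p6, 250 bases before to 50 after the gene start), which held 32 of the 36 (Grpel2, Timm21, Tomm40l and Tomm7 had no entry). Motifs were searched on both strands and are descriptions of letters, not of binding. The ETS core CCGGAAG, bound by GABPA (also named NRF-2), stood in 12 of the 32 promoters (37.5%), in 9.93% of the promoters of all 27025 genes in the table and in 18.2% of those of genes tested here. The 11-letter YY1 motif was found in Timm50 alone (3.12%, against 1.61% of tested genes), and the 10-letter palindrome of NRF1 in 0 of 32 (2.02% of tested genes). Only exact letters were counted, and at shares this low 0 or 1 match in 32 promoters says little. No ETS match overlapped the YY1 match. The 11 tested genes with the ETS letters had a median log2 fold change in IR of -0.46 (range -0.77 to 0.22, 9 fell), and the 19 tested genes with a promoter but without them had a median of -0.51 (range -0.78 to 0.01, 14 fell), so the ranges overlapped nearly in full. The 100 bases before the gene start, 5′ to 3′ on the gene's strand, follow for 6 of the genes with a match there. They follow also for Timm44 and Grpel1, the genes with the largest falls. Pmpca, Timm10 and the untested Timm8a2 have a match there as well and are not shown. Capitals mark CCGGAAG or its reverse complement.
Tomm22 (chr15:79670768-79670867, plus strand): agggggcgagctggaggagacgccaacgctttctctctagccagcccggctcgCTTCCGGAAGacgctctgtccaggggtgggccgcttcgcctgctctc
Tomm70a (chr16:57121614-57121713, plus strand): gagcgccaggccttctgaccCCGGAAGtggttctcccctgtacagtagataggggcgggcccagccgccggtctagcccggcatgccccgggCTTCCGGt
Pmpcb (chr5:21737060-21737159, plus strand): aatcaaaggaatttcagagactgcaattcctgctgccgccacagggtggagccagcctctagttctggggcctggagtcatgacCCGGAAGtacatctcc
Timm23 (chr14:32201892-32201991, minus strand): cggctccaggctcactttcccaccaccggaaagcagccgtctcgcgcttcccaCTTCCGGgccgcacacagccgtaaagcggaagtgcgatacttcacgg
Timm8b (chr9:50603801-50603900, plus strand): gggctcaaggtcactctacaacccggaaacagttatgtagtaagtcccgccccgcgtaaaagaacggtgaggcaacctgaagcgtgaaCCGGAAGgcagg
Tomm34 (chr2:164071170-164071269, minus strand): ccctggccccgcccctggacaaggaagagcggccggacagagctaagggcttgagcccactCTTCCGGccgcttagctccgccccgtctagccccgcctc
Timm44 (chr8:4275906-4276005, minus strand): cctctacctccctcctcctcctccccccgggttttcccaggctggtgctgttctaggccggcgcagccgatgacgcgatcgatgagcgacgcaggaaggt
Grpel1 (chr5:36465085-36465184, plus strand): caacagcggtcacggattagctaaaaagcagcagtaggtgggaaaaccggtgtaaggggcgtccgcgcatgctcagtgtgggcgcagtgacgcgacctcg
In Tomm22 the 2 matches overlap as a palindrome starting 47 bases before the gene start, and Tomm70a carries 1 match 80 and 1 match 8 bases before it. Tomm34, which was not called and had the largest positive log2 fold change, holds the same letters 39 bases before its start. Timm44 has no match, and that of Grpel1 lies in the searched window outside the 100 bases shown.

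In the TOM complex, the entry gate of the outer membrane, 6 of the 8 tested genes fell in IR (median log2 fold change -0.38). Tomm5, a small subunit that stabilises the pore, had the highest level per length of the complex, 139 ± 9.75 FPKM in SHAM (SD, n = 6). Its lowest, median and highest levels were 96.7, 108 and 120 CPM in SHAM, 55.1, 63.5 and 74.0 in IR, and 68.1, 83.8 and 108 in IR+Decursin. Every IR library was below every SHAM library, and the IR+Decursin libraries bridged the gap. The change in IR was -0.76 ± 0.11 on the log2 scale (SE, adjusted p = 2.75e-05), or 40.8% lower. Tomm40, the pore itself, had 42.1, 47.9 and 57.3 CPM in SHAM, 31.6, 37.9 and 42.3 in IR, and 32.6, 50.1 and 63.5 in IR+Decursin. It fell by 0.39 on the log2 scale (SE 0.13, adjusted p = 0.0164), with 1 IR library (IR 5) just above the lowest SHAM library. Its isoform gene Tomm40l fell as well (69.4 to 78.1 CPM in SHAM, 49.4 to 62.0 in IR, log2 fold change -0.37 ± 0.09, adjusted p = 0.00218), and its groups did not overlap. Of the receptors, Tomm22, the central receptor, and Tomm70a, the receptor for carrier proteins and chaperone-bound cargo, fell (-0.49 and -0.39), while Tomm20, the presequence receptor, was at -0.20 ± 0.08 and did not pass (adjusted p = 0.0567). Of the other small subunits, Tomm6 fell (-0.24 ± 0.07, adjusted p = 0.0108), and Tomm7 had a similar estimate that did not pass (-0.26 ± 0.11, adjusted p = 0.0646). With library totals in place of TMM factors Tomm6 turned to 0.07, and Tomm7 and Tomm20 also lay above 0. Differences between these subunits were not tested.

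The cytosolic cochaperone Tomm34, which hands precursors from chaperones to the outer membrane, had the largest positive value of the 34. Its levels were 15.3, 19.0 and 21.7 CPM in SHAM, 20.3, 21.5 and 23.6 in IR, and 15.5, 18.9 and 22.0 in IR+Decursin. All 6 IR libraries lay above every SHAM library but SHAM 2, and the IR+Decursin libraries spread over the SHAM range. The log2 fold change of 0.22 ± 0.10 did not pass (adjusted p = 0.0647). It passed without SHAM 2 (0.27, adjusted p = 0.0336), and the adjusted p ran from 3.30e-05 to 0.158 over the alternatives.

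Among the small TIM chaperones, 4 of 6 tested genes fell (median -0.42). Timm8b, which pairs with Timm13 to carry hydrophobic cargo, had the highest level per length of all 36 genes, 185 ± 16.9 FPKM in SHAM. Its levels were 91.9, 104 and 120 CPM in SHAM, 61.3, 68.3 and 82.8 in IR and 59.5, 74.6 and 101 in IR+Decursin, and it was 33.4% lower in IR (log2 fold change -0.59 ± 0.11, adjusted p = 2.06e-04). The SHAM and IR groups stood apart. Timm9 and Timm10 together form the main chaperone of carrier proteins, and both fell. Timm9 went from 17.4, 18.0 and 20.8 CPM in SHAM to 11.5, 13.0 and 14.4 in IR (-0.51 ± 0.08, adjusted p = 5.90e-05), and Timm10 from 47.4, 57.1 and 59.9 to 29.5, 40.0 and 45.4 (-0.50 ± 0.12, adjusted p = 0.00139). Timm8a1, the X-linked gene whose human counterpart is mutated in deafness-dystonia syndrome, was low throughout (10.2 to 13.0 CPM in SHAM, 8.52 to 10.1 in IR) and fell by 0.34 on the log2 scale (SE 0.11, adjusted p = 0.0124). Timm10b, which docks the chaperones at TIM22, and Timm13, the partner of Timm8 proteins, did not pass (-0.13 and -0.23, adjusted p = 0.210 and 0.0551). Timm8a2 held 3 counts over all 18 libraries and was not tested.

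Both TIM22 genes fell. Timm22, the channel that inserts metabolite carriers into the inner membrane, had 27.7, 31.7 and 33.5 CPM in SHAM, 19.5, 20.0 and 21.3 in IR and 20.4, 25.6 and 28.8 in IR+Decursin. The IR libraries lay in a narrow band below every SHAM library, with a log2 fold change of -0.61 ± 0.08 (adjusted p = 1.13e-05). Timm29, a subunit that links TIM22 to TOM, went from 68.6, 74.6 and 80.1 CPM in SHAM to 51.4, 53.0 and 58.7 in IR (-0.46 ± 0.09, adjusted p = 2.49e-04).

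Of the 5 TIM23 genes, 4 fell (median -0.51). Timm17a, a channel subunit with 133 ± 10.7 FPKM in SHAM, had 137, 165 and 185 CPM in SHAM, 102, 110 and 128 in IR and 106, 134 and 160 in IR+Decursin. It was 29.6% lower in IR (-0.51 ± 0.10, adjusted p = 3.26e-04), with no overlap of the groups. Its paralog Timm17b, on the X chromosome, had 16.1, 17.7 and 19.7 CPM in SHAM, 14.1, 16.5 and 18.2 in IR and 14.1, 18.0 and 21.6 in IR+Decursin. The groups overlapped and the change of -0.13 ± 0.10 did not pass (adjusted p = 0.289). Timm21, which couples TIM23 to TOM and to the respiratory chain, changed most (47.5, 51.9 and 57.4 CPM in SHAM against 27.9, 33.8 and 40.0 in IR, -0.63 ± 0.10, adjusted p = 5.63e-05). Timm50, the presequence receptor of the inner membrane, and Timm23, the channel gene, fell by 0.56 and 0.46 on the log2 scale, and Timm23 has 5 near-identical copies in the genome that its counts could share.

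**Figure D2:**
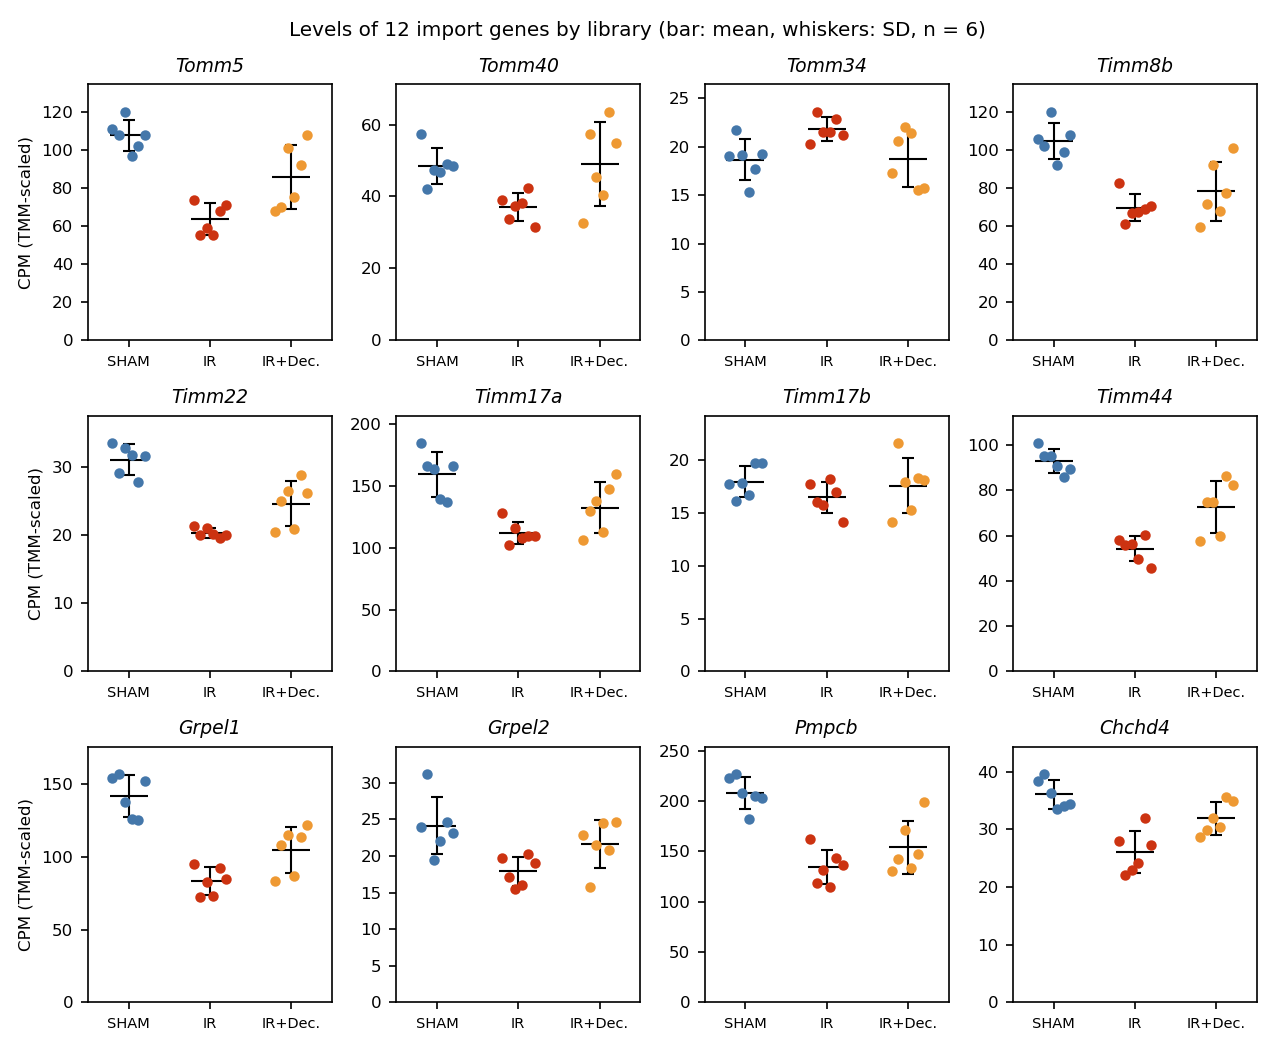
Levels of 12 import genes in CPM with TMM scaling (y axis from 0), 1 point per library, with mean and SD of 6 libraries per group. Tomm5, Timm8b, Timm22, Timm17a, Timm44, Grpel1, Pmpcb and Chchd4 have every IR library below every SHAM library. Tomm40, Tomm34, Timm17b and Grpel2 overlap between these groups.

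All 6 genes of the import motor fell, with a median of -0.70. Timm44, which tethers the matrix chaperone mtHsp70 to the TIM23 channel, had 86.0, 93.0 and 101 CPM in SHAM, 45.7, 56.0 and 60.1 in IR and 57.7, 74.8 and 86.3 in IR+Decursin. It was 41.6% lower in IR (-0.78 ± 0.10, adjusted p = 6.52e-06), and the highest IR library was below the lowest SHAM library. Grpel1, the nucleotide exchange factor of mtHsp70, had 125, 145 and 157 CPM in SHAM, 72.7, 83.5 and 95.1 in IR and 83.6, 111 and 122 in IR+Decursin (-0.77 ± 0.10 in IR, adjusted p = 1.05e-05). Its paralog Grpel2 had 19.5, 23.6 and 31.2 CPM in SHAM and 15.5, 18.0 and 20.2 in IR, with overlap (-0.43 ± 0.11, adjusted p = 0.00444). Dnajc19, the J-protein of the motor whose human counterpart is mutated in a dilated cardiomyopathy with ataxia, went from 46.5, 51.1 and 63.1 CPM in SHAM to 27.7, 31.9 and 36.5 in IR (-0.73 ± 0.13, adjusted p = 1.21e-04). Its relative Dnajc15 went from 74.3, 88.3 and 98.5 to 47.4, 51.7 and 67.9 (-0.67 ± 0.11, adjusted p = 6.96e-05). In both J-protein genes the SHAM and IR libraries stood apart. Pam16, the J-like regulator of the motor, fell by 0.52 on the log2 scale with overlapping groups.

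Both subunits of the processing peptidase fell. Pmpcb, the catalytic subunit, had 182, 207 and 227 CPM in SHAM, 115, 134 and 162 in IR and 131, 144 and 199 in IR+Decursin (-0.63 ± 0.10 in IR, adjusted p = 6.69e-05). Pmpca, the substrate-binding subunit, had 124, 133 and 136 CPM in SHAM, 89.8, 97.9 and 106 in IR and 86.9, 104 and 137 in IR+Decursin (-0.43 ± 0.08, adjusted p = 3.52e-04). Samm50, the channel that inserts beta-barrel proteins such as Tomm40 into the outer membrane, had 218, 226 and 256 CPM in SHAM and 139, 161 and 199 in IR (-0.48 ± 0.10, adjusted p = 6.71e-04). In all 3 genes every IR library was below every SHAM library. Of the disulfide relay, Chchd4, the oxidoreductase, fell (33.5, 35.3 and 39.6 CPM in SHAM, 22.1, 25.7 and 31.9 in IR, -0.47 ± 0.09, adjusted p = 2.16e-04). Gfer, the oxidase that recharges Chchd4, had overlapping groups and no call (11.5, 12.9 and 15.5 CPM in SHAM, 11.3, 13.0 and 15.3 in IR, 0.01 ± 0.10, adjusted p = 0.935, with a 95% interval of -0.21 to 0.24). The antisense transcript Tomm6os ran from 0 to 1.26 CPM, and its exons overlap those of Tomm6 (-0.66 ± 0.53, adjusted p = 0.314). Tomm20l held 3 counts, in SHAM 3 and SHAM 4, and was not tested.

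The rest of the import pathway was described with 20 partner genes outside the naming rule, of which 18 fell in IR and 0 rose (median -0.57). The smallest adjusted p-values belonged to Apoo (-0.72 ± 0.08, 3.54e-06) and Apool (-0.78 ± 0.10, 1.17e-05), which organise the cristae, Aifm1 (-0.78 ± 0.09, 6.49e-06), which binds Chchd4, and Mtch2 (-0.58 ± 0.08, 1.74e-05), an outer membrane insertase. Hspa9, the mtHsp70 at the centre of the motor and named here after its values were seen, went from 740, 825 and 915 CPM in SHAM to 474, 515 and 582 in IR (-0.65 ± 0.10, adjusted p = 2.89e-05). Of 42 nuclear respiratory chain genes, 42 fell (median -0.70), and of 13 mitochondrial chaperone and quality control genes 9 fell (median -0.49).

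The second comparison, IR+Decursin against IR, asked how decursin changed the injured hearts. No import gene was called by edgeR, in a comparison where 0 of 15088 genes fell and 0 rose (0% each). At an unadjusted p under 0.05, 13 of the 34 were higher (38.2%, against 10.1% of all genes) and 1 was lower (Tomm34, 2.94% against 7.87%). The estimate was above 0 for 30 of the 34, or 88.2%, against 47.0% of all genes, with a median of 0.18 against -0.02 over all genes. Like lists leaned the same way. Of the respiratory chain genes 42 of 42 were higher (median 0.20, 18 at an unadjusted edgeR p under 0.05). Of the partner genes 18 of 20 were higher (median 0.18, 10 at that p). The mitochondrial chaperone and quality control genes had 10 of 13 higher (median 0.15). DESeq2 called 429 genes, of which 345 rose (1.74% of all genes) and 84 fell. Among them were 4 import genes, Timm22, Timm44, Tomm22 and Tomm5, and all 4 rose. Without the library IR+Decursin 1, edgeR called 976 genes, of which 696 rose (4.58% of all genes) and 280 fell. Import genes made up 9 of those that rose (Chchd4, Grpel1, Timm22, Timm29, Timm44, Timm50, Tomm22, Tomm40 and Tomm5) and 0 of those that fell. Without IR+Decursin 6, the library nearest to SHAM on the TMM scale, 0 were called and the median was 0.12. Of the cardiomyocyte markers 14 of 14 were higher and of the macrophage markers 10 of 10 lower than in IR, with 0 called, and their part in the result was not tested.

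The IR libraries are shared with the first comparison, so a gene's values in both rest on the same 6 libraries. Tomm5 was 0.43 ± 0.11 higher on the log2 scale in IR+Decursin than in IR (95% interval 0.19 to 0.67, adjusted p = 0.0991), Timm44 0.42 ± 0.10 higher (0.22 to 0.62, adjusted p = 0.0883), Tomm40 0.40 ± 0.13 higher (0.13 to 0.67, adjusted p = 0.138) and Grpel1 0.33 ± 0.10 higher (0.12 to 0.55, adjusted p = 0.133). Over the alternatives the adjusted p of Timm44 ran from 0.00726 to 0.473 and that of Tomm5 from 0.0204 to 0.473. Tomm22, named here after its values were seen, was the 1 import gene (2.94%, against 0.272% of all genes) whose IR+Decursin libraries all lay above all IR libraries, at 59.5 to 73.6 CPM against 55.1 to 59.3 (0.25 ± 0.07, adjusted p = 0.0991). The gap between the 2 groups was under 1 CPM. By role the medians were 0.26 for the motor, 0.25 for TIM22, 0.23 for TIM23, 0.19 for TOM and 0.10 for the small TIM chaperones. With libraries scaled to equal cardiomyocyte markers the median of the import genes was -0.13 and that of all genes -0.31, with 0 calls, and 26 of the 34 estimates changed sign, Tomm22 among them.

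The third comparison, IR+Decursin against SHAM, shares its SHAM libraries with the first. Here 22 import genes fell (64.7%, against 11.8% of all genes) and 0 rose (17.5% of all genes), with a median of -0.28 and a range of -0.57 to 0.02. In 21 of them the fall was also called in IR. Chchd4, Grpel2, Timm8a1, Tomm40 and Tomm40l passed in IR alone, and Tomm7 passed here alone (-0.44 ± 0.11, adjusted p = 0.00753, with 64.7 to 90.9 CPM in SHAM and 44.9 to 69.0 in IR+Decursin). None of these 6 was called in IR+Decursin against IR with all libraries in the edgeR fit. Grpel1 and Timm9 were the 2 genes (5.88%, against 2.90% of all genes) whose groups stood apart. Tomm40 was not called (0.02 ± 0.13, adjusted p = 0.939, 95% interval -0.25 to 0.29), and its 6 values spread more widely than in SHAM. The count was 15 when SHAM 1, SHAM 2, IR+Decursin 1, IR+Decursin 2 or IR+Decursin 4 was left out, 17 without SHAM 3 or SHAM 6, 19 without SHAM 5 or IR+Decursin 3, and 20 to 23 without any other. It was 14 without the 3 libraries with Xist and 4 with library totals. With cardiomyocyte scaling 0 import genes fell and 7 rose, where 0.404% of all genes fell and 49.4% rose. Of the cardiomyocyte markers 7 of 14 fell, and of the macrophage markers 10 of 10 rose. The respiratory chain genes had 41 of 42 that fell (median -0.48) and the partner genes 14 of 20 (-0.35). The mitochondrial chaperone and quality control genes had 6 of 13 that fell (-0.26).

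The libraries of the IR+Decursin group lay further apart (SD 0.17) than those of SHAM (0.07) or IR (0.08) in the mean of the import genes. The mean log2 deviation of 33 import genes (without Tomm6os) from the SHAM mean was -0.09 to 0.09 in SHAM and -0.51 to -0.30 in IR. In IR+Decursin it was -0.53, -0.34, -0.17, -0.38, -0.19 and -0.07 for libraries 1 to 6. In IR the library nearest to SHAM was IR 1, at -0.30. IR+Decursin 1 was lower than any IR library, and IR+Decursin 6 lay in the SHAM range. These places use TMM factors, 0.831 in IR+Decursin 6 with a group median of 1.06. As a share of all counts its import genes took 0.195%, with 0.183 to 0.198% in IR and 0.210 to 0.229% in SHAM. That total includes its 2332306 counts of Gm26917. IR+Decursin 3 and 5 took 0.219 and 0.218%. In IR libraries 1 to 9 of the 34 genes were within the SHAM range, and in IR+Decursin 2, 4, 16, 4, 14 and 24 genes were. The cardiomyocyte markers followed the same order in part, with mean deviations of -0.79, -0.24, -0.41, -0.57, -0.37 and -0.01 in libraries 1 to 6 and -0.96 to -0.45 in IR. The part of cell make-up in these differences was not tested.

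**Figure D3:**
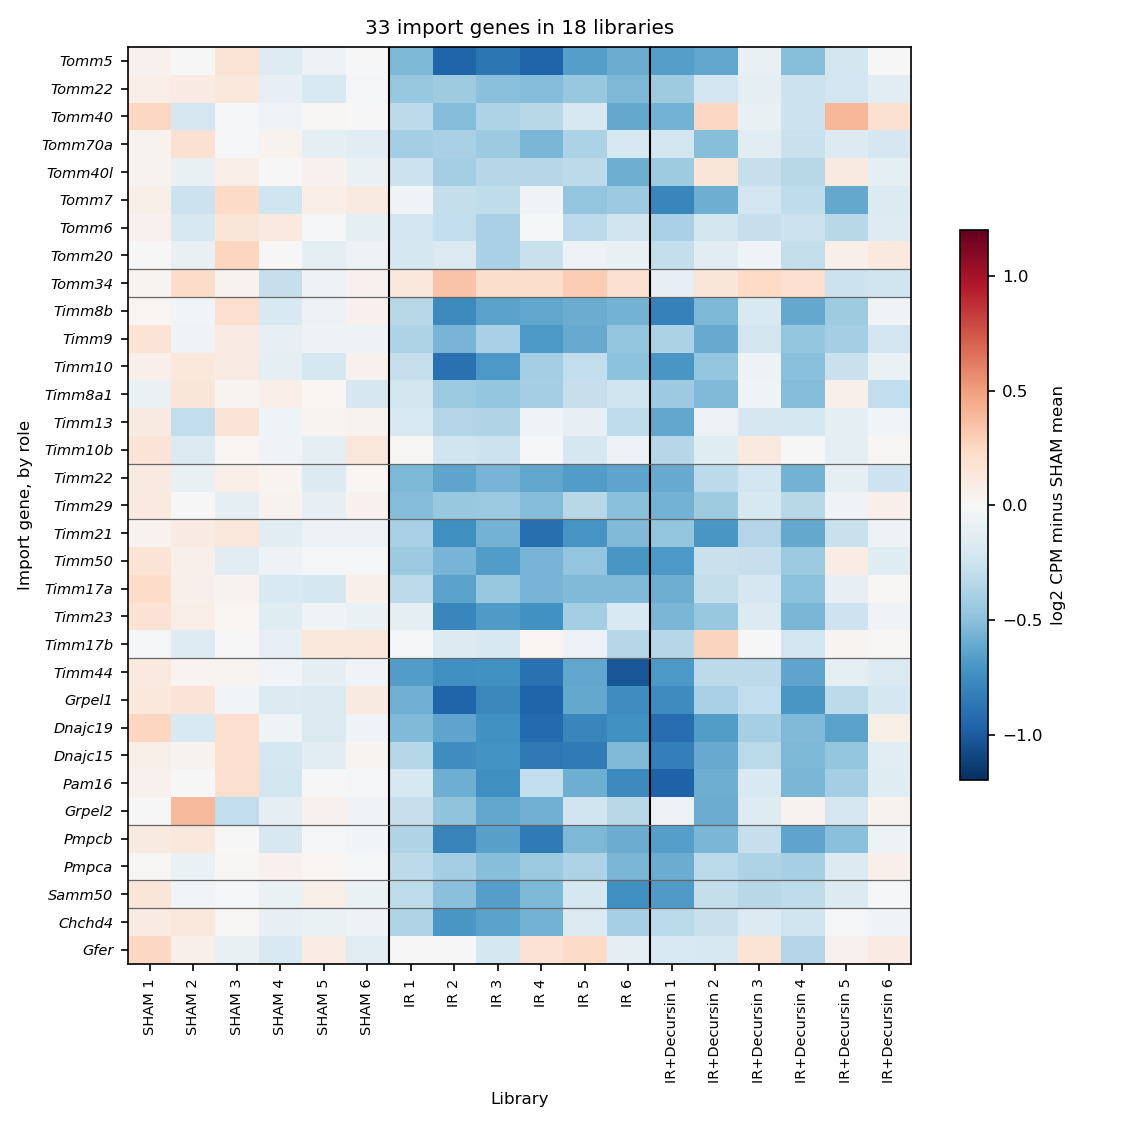
Log2 CPM minus the SHAM mean (color) of 33 import genes (rows, by role) in 18 libraries (columns). IR columns are blue for most genes outside Tomm34, Gfer, Timm17b and Timm10b, and IR+Decursin 1 is blue like them. IR+Decursin 6 is mostly pale on this TMM scale.

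**Figure D4:**
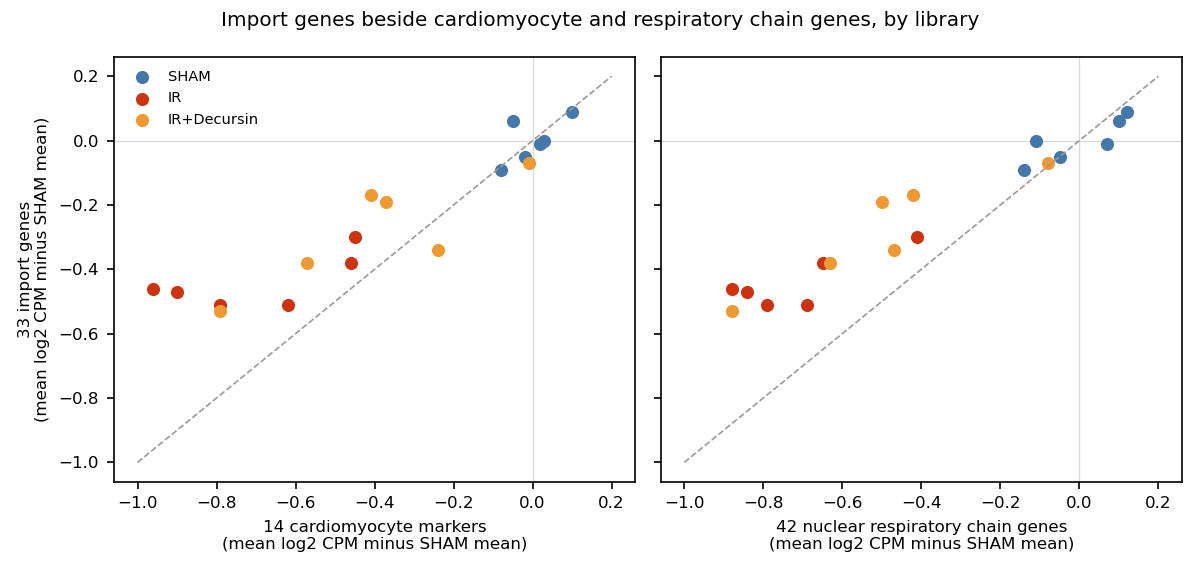
Mean log2 CPM minus the SHAM mean of 33 import genes (y axis) against that of 14 cardiomyocyte markers or 42 respiratory chain genes (x axis), 1 point per library, with a dashed line of equal change. Every IR library lies above the line, and on this TMM scale IR+Decursin 6 lies with the SHAM libraries.

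In each IR library the import genes were lowered less than the cardiomyocyte markers, by 0.08 to 0.51 on the log2 scale, and less than the respiratory chain genes, by 0.11 to 0.42. In SHAM these differences were -0.03 to 0.11 and -0.08 to 0.11. In IR+Decursin they were -0.10 to 0.26 and 0.01 to 0.34. The members of each list share library and depth, and these values are descriptions.

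Ratios of 2 genes within a library do not depend on the scaling, so 7 pairs of paralogs or partners were compared with two-sided exact permutation tests over 924 splits (smallest possible p = 0.00216), adjusted over 21 tests. None passed. The log2 count ratio of Timm17a to Timm17b was 3.15 ± 0.22 in SHAM, 2.77 ± 0.15 in IR (SD, n = 6) and 2.91 ± 0.18 in IR+Decursin. It was 0.37 lower in IR than in SHAM (exact permutation p = 0.00866, adjusted p = 0.0909), and 3 of 6 IR libraries were below every SHAM library. Without SHAM 5 the difference was -0.44 and passed (exact permutation, adjusted p = 0.0455, with 0.0455 to 0.219 over the alternatives). The ratio of Grpel1 to Grpel2 was 2.57 ± 0.20 in SHAM and 2.22 ± 0.11 in IR, with 5 of 6 IR libraries below every SHAM library (difference -0.35, exact permutation p = 0.00866, adjusted p = 0.0909). The ratio of Timm8a1 to Timm8b was 0.25 higher in IR (exact permutation p = 0.0260, adjusted p = 0.182), and that of Pmpca to Pmpcb 0.20 higher (exact permutation p = 0.0563, adjusted p = 0.280). The other pairs had smaller differences in IR, 0.00 for Timm9 to Timm10, -0.02 for Tomm40 to Tomm40l and -0.05 for Dnajc19 to Dnajc15.

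**Figure D5:**
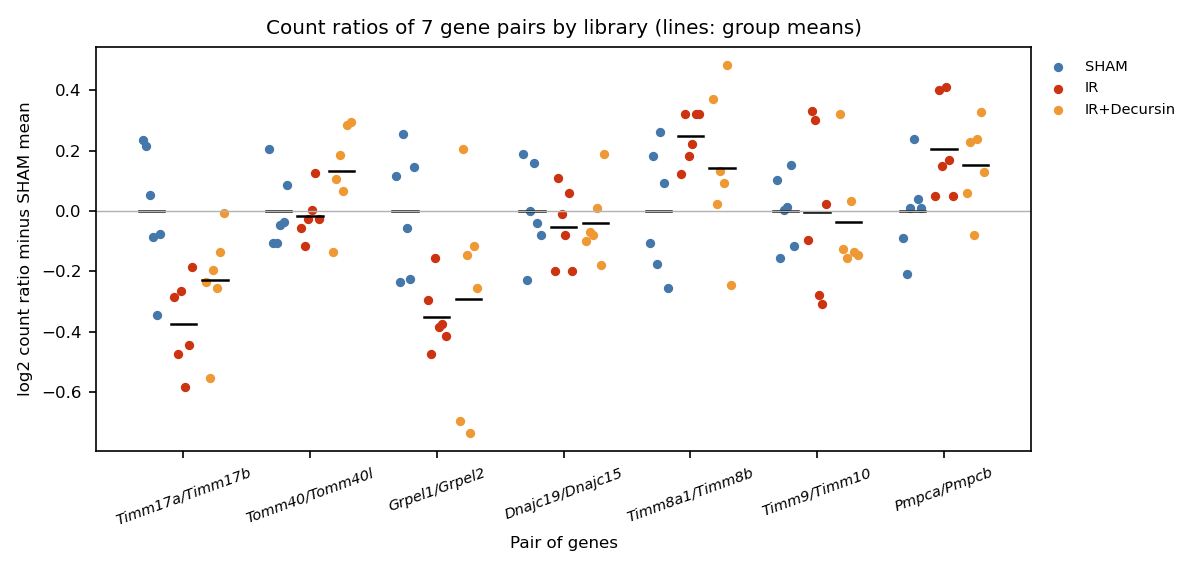
Log2 count ratio of 7 gene pairs minus the SHAM mean (y axis), 1 point per library with group means as lines, 6 libraries per group. The IR libraries of Timm17a to Timm17b and of Grpel1 to Grpel2 lie toward the bottom of the SHAM range or below it.

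Counting limits touch some of these genes. Exons of 18 of the 36 overlap another gene in the older build GRCm38 (GENCODE), such as Tomm6 with Tomm6os, Timm9 with Tomm20l, Tomm40l with Nr1i3 and Timm10b with Arfip2. Without a stated strand setting their reads cannot be told apart. Near-identical stretches (at least 95% identity over at least 30% of the transcript) in transcripts of other genes were found for 4 of the 35 genes searched. They were Timm23, Gfer, Pam16 and Timm8a1. The match of Gfer was to the gene Dst, which is in the count table. Those of Timm23, Pam16 and Timm8a1 were to gene models that are not in it.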

How the data were processed

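Bulk RNA-seq of total RNA was used from 18 hearts, 6 per group, with groups and replicate numbers taken from the labels. Deposited by the authors were whole-number read counts for each symbol, and FPKM for the same symbols. The submitters' processing notes name fastp, HISAT2, HTSeq and the build GRCm39. No version, annotation, strand setting or rule for multi-mapping reads is given there. The deposited FPKM values are scaled to length and library total only, and served to compare levels between genes.

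The test of counts was the quasi-likelihood F-test of edgeR 4.0.16 (R 4.3.3). After filterByExpr and TMM scaling, all 18 libraries entered 1 robust fit of group means (15 residual degrees of freedom). Two-sided p-values were adjusted by Benjamini-Hochberg over 15088 genes, and genes under 0.05 were called. CPM are counts scaled to 1 M with TMM factors. Depth was 27.5 to 35.0 M counts. Gene pair ratios used log2 of counts plus 0.5. No 2 libraries held identical counts. The script was tested on simulated counts.

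The genes, roles, lists and tests were chosen with earlier results of these data known. Values by library are given for the member of each role with the highest mean FPKM and the one with the largest change in IR, for any member called against the others or for decursin, and for both genes of each pair. Of the partners, the 4 with the smallest adjusted p are named.

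Alternatives were DESeq2 1.42.0, limma 3.58.1 (voom with quality weights, and limma-trend with 1 or 0.1 added to FPKM before log2), RLE and upper-quartile factors, library totals, TMM without mitochondrial and haemoglobin genes, scaling to cardiomyocyte markers, no filter, 1 CPM in 6 libraries, fits of 2 groups, a replicate block, a ratio pseudocount of 5, and leaving out each library or the 3 with over 1000 Xist counts.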

Additional observations from a re-analysis of the deposited data

Results flagged for a closer look

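Single libraries that stood far from the rest of their group of 6 were looked for in the CPM of the 34 tested genes, and 4 of 102 groups held one (3.92%, where chance gives about 1 in 20). Timm13 was lowest in IR+Decursin 1, at 29.3 CPM, with 38.9 to 44.0 in the other 5 libraries. Tomm20 was highest in SHAM 3, at 84.8 CPM, with 65.9 to 71.0 in the others. Tomm70a was lowest in IR+Decursin 2, at 66.7 CPM, with 79.2 to 86.4 in the others. Tomm6os was highest in IR 4, at 1.26 CPM, with 0.192 to 0.585 in the others, at a depth of few counts.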

How the results depend on the processing

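Percentages in parentheses here are shares of all genes in the same fit. Import genes that fell in IR against SHAM numbered 26 with DESeq2 (14.5%) and 26 with the replicate block (20.7%). The count was 25 without the libraries with Xist (16.9%) and 13 with library totals (7.00%). It was 13 with both limma-trend fits on log2(FPKM) (7.22% and 7.24%) and 0 with cardiomyocyte scaling (1.08%). Leaving out 1 library gave 26 to 29 (19.8 to 23.3%). The count that rose there was 2 with library totals (46.5%) and with both limma-trend fits on log2(FPKM) (45.7% and 46.0%). It was 15 with cardiomyocyte scaling (76.3%), 1 with only the 2 groups compared (25.5%) and 1 with voom (26.3%). Leaving out 1 library gave 0 to 1 (23.4 to 25.5%). In IR+Decursin against IR the count that rose was 4 with DESeq2 (1.74%). Leaving out 1 library gave 0 to 9, with 9 only without IR+Decursin 1 (4.58%). There 0 import genes fell under every alternative run. In IR+Decursin against SHAM the count that fell was 4 with library totals, 5 with both limma-trend fits, 14 without the libraries with Xist, 17 with the replicate block and 0 with cardiomyocyte scaling; leaving out 1 library gave 15 to 23, and 7 rose with cardiomyocyte scaling. Of the gene pairs, 0 to 1 differed in IR against SHAM when 1 library was left out.

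The replicate numbers are not stated to pair the samples. The correlations of same-numbered libraries were 0.01 to 0.15 for IR with SHAM and -0.49 to 0.38 for IR+Decursin with IR. They were -0.19 to -0.01 for IR+Decursin with SHAM, with over 0.1 in 2, 2 and 0 of 6 pairs in this order. Such correlations cannot show whether animals were paired. In the paired test of ratios the smallest possible p is 0.0312, and 0 pairs differed.

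Counting each gene under each alternative, the sign turned with a call on either side in 30 values of IR against SHAM, 0 of IR+Decursin against IR and 20 of IR+Decursin against SHAM, and with no call on either side in 23, 55 and 48. With library totals Timm10b, Timm13, Timm17b, Tomm20 and Tomm7, not called, also turned positive in IR. The values with a call follow. With cardiomyocyte scaling, which moved the median of all genes to 0.71 in IR and 0.41 in IR+Decursin, the log2 fold changes in IR against SHAM were Chchd4 0.23, Dnajc15 0.04, Grpel2 0.28, Pam16 0.19, Pmpca 0.27, Pmpcb 0.07, Samm50 0.21, Timm10 0.20, Timm10b 0.58, Timm13 0.48, Timm17a 0.20, Timm17b 0.57, Timm21 0.07, Timm22 0.10, Timm23 0.24, Timm29 0.24, Timm50 0.14, Timm8a1 0.37, Timm8b 0.12, Timm9 0.19, Tomm20 0.51, Tomm22 0.22, Tomm40 0.31, Tomm40l 0.33, Tomm6 0.47, Tomm7 0.45, Tomm70a 0.32. In IR+Decursin against SHAM they were Gfer 0.34, Pmpca 0.10, Samm50 0.10, Timm10 0.06, Timm10b 0.33, Timm17a 0.12, Timm17b 0.36, Timm21 0.00, Timm22 0.06, Timm23 0.07, Timm29 0.15, Timm44 0.03, Timm50 0.12, Timm9 0.04, Tomm20 0.30, Tomm22 0.17, Tomm40l 0.26, Tomm5 0.06, Tomm6 0.13, Tomm70a 0.17. Tomm6 in IR was 0.07 with library totals and 0.06 with both limma-trend fits. That shift of all genes follows from the scaling's construction; which scale fits the tissue was not tested. At 27.5 to 35.0 M counts Timm8a2, Tomm20l and Tomm6os were the 3 genes with 10 counts or fewer in some library.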
